A study of Mus musculus with 9 samples.

Results

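The genes described here are 10 that encode the core machinery of histone H3 lysine 9 (H3K9) methylation and its readers. They were chosen by name, as the rows of the counts whose symbol is *Trim28*, *Setdb1*, *Ehmt1*, *Ehmt2*, *Suv39h1*, *Suv39h2*, *Atf7ip*, *Cbx1*, *Cbx3* or *Cbx5*, and all 10 were found among the 25239 gene symbols. RNA-seq libraries came from mouse embryonic stem cells (ESCs) of the E14 line, labelled as strain 12910la and grown in serum with leukemia inhibitory factor. The control was E14 itself (Rbbp4+/+). *Rbbp4* Ins/Ins carried a short in-frame insertion on both alleles of *Rbbp4*, a histone-binding subunit of several chromatin complexes. *Rbbp4* Ins/Del carried the same insertion on one allele and a short in-frame deletion on the other. Each mutant line was a single clone isolated after CRISPR-Cas9 editing and puromycin selection, whereas nothing in the sources used here says that the control passed through those steps, so editing history and clone cannot be told apart from the *Rbbp4* genotype. Each line had 3 libraries, 9 in all.

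Methylated H3K9 marks heterochromatin and silenced repeats. SUV39H1 and SUV39H2 trimethylate H3K9 at pericentromeric repeats, EHMT2 (G9a) and EHMT1 (GLP) form a dimer that mainly dimethylates H3K9 in euchromatin, and SETDB1 trimethylates it at endogenous retroviruses and imprinted regions. SETDB1 is brought there by TRIM28 (KAP1), which binds KRAB zinc finger proteins, and is stabilised in the nucleus by ATF7IP. The mark is read by the heterochromatin proteins HP1β, HP1γ and HP1α, encoded by *Cbx1*, *Cbx3* and *Cbx5*. In ESCs, this machinery is known for keeping retroviral elements silent.

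Libraries held between 15838064 and 21366868 counted reads. The *Rbbp4* transcript itself was at 10005 ± 99.1 normalized counts (mean ± SD, n = 3) in the control, 5604 ± 153 in Ins/Ins and 10359 ± 238 in Ins/Del, so the RNA was lower in 1 of the mutant lines. For the protein, the authors reported lower levels of mutant RBBP4 by Western blot. Normalized counts are counts scaled to a common library size. The 6 ESC markers (*Pou5f1*, *Nanog*, *Sox2*, *Esrrb*, *Zfp42*, *Klf4*) summed to 52900 to 56328 normalized counts across the control, 68379 to 68949 in Ins/Ins and 69645 to 71805 in Ins/Del. Of these, 5 rose and *Pou5f1* fell in Ins/Ins, and 4 rose and 0 fell in Ins/Del, by the edgeR test described below. Markers of other cell types were far lower in sum and moved with the groups, in part in opposite directions within a list. The 3 neural markers summed to 1201 to 1254 in the control, 245 to 267 in Ins/Ins and 223 to 261 in Ins/Del, and 2 of them (*Pax6* and *Neurod1*) fell in both lines. The 4 primitive endoderm markers summed to 315 to 353, 133 to 161 and 164 to 198. *Dab2* and *Gata4* fell in both lines, whereas *Gata6* (means of 16.2, 20.3 and 35.8 normalized counts) and *Sox17* (7.46, 11.2 and 16.6) rose in Ins/Del. *Gata4* lies between 45 and 87 Mb of chromosome 14, where 84.4% of 262 genes tested were lower in Ins/Ins and 81.3% in Ins/Del. The part of that regional shift in the *Gata4* value was not tested. The 6 fibroblast markers summed to 548 to 644, 256 to 281 and 341 to 364. Within them, the collagen genes *Col1a1* (means of 287, 17.0 and 24.4) and *Col1a2* (log2 fold change -5.28 and -4.76) fell and *Thy1* (means of 45.7, 246 and 312) rose. The 3 trophectoderm markers summed to 49.6 to 59.7, 13.7 to 24.8 and 11.2 to 24.3, and of the 2 tested, 1 fell in Ins/Ins and 2 fell in Ins/Del. The 3 mesoderm markers summed to 224 to 246, 308 to 343 and 264 to 277, of which *Eomes* (means of 193, 322 and 271) rose, *T* (44.6, 2.34 and 0.301) fell and *Mesp1* had 0 reads in the control. The part that these shifts played in the values below was not tested. In bulk RNA, fewer cells of a type and less RNA per cell cannot be told apart.

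Each mutant was compared with the control to ask how the transcripts of this machinery differ in cells with altered RBBP4. *Suv39h1* fell by 68.1% in Ins/Ins and fell by 73.4% in Ins/Del, and the largest shift of any other member in either line was that of *Cbx5*, which fell by 22.4% in Ins/Ins. All 10 genes passed the limit of an adjusted p-value of 0.01 in edgeR's quasi-likelihood test in *Rbbp4* Ins/Ins, where 58.4% of the 14125 genes tested did so. *Trim28*, *Setdb1* and *Cbx1* rose, against 29.0% of all genes tested that were higher. *Suv39h1*, *Suv39h2*, *Ehmt1*, *Ehmt2*, *Atf7ip*, *Cbx3* and *Cbx5* fell, against 29.4% that were lower. In *Rbbp4* Ins/Del, all 10 genes again passed, against 62.5% of all genes tested, with the same 3 genes higher (30.6% of all genes tested) and the same 7 lower (31.9%). With most genes past the limit, passing it did not set the members apart, and both comparisons used the same control libraries. The median log2 fold change of the 10 genes was -0.16 in Ins/Ins and -0.23 in Ins/Del, beside 0.00 and -0.01 over all genes tested.

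**Figure D1:**
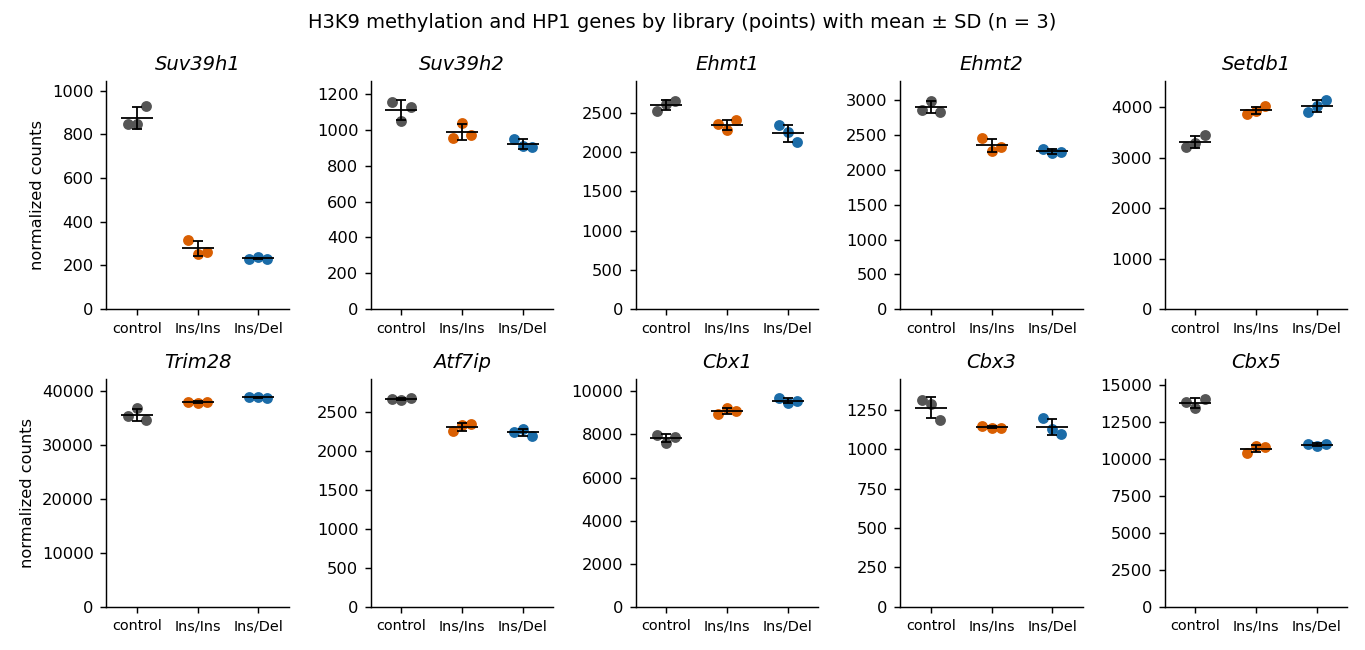
Normalized counts (linear axis from 0) of the 10 genes in each of the 9 libraries. Points are libraries, bars are the mean ± SD of 3 libraries per line. *Suv39h1* dropped from at least 845 in the control to at most 318 in the mutants, while the other genes moved by a smaller part of their level.

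*Suv39h1* encodes the founding enzyme of H3K9 trimethylation and lies on the minus strand of chromosome X (GRCm38, 8061171 to 8074760). Its level was 846, 845 and 931 normalized counts in the libraries of the control, 318, 254 and 263 in those of Ins/Ins, and 229, 236 and 231 in those of Ins/Del. Every mutant library lay far below every control library, and every Ins/Del library lay below every Ins/Ins library. The mean was 874 ± 49.5 (SD, n = 3) in the control, 278 ± 34.7 in Ins/Ins and 232 ± 3.78 in Ins/Del. Its log2 fold change came to -1.64 in Ins/Ins (SE 0.070, adjusted p = 2.6e-22, edgeR's quasi-likelihood test), a 3.11-fold fall. In Ins/Del, it came to -1.91 (SE 0.073, adjusted p = 4.5e-24, the same edgeR test), a 3.75-fold fall. Of the genes tested, 618 (4.38%) had a lower log2 fold change than *Suv39h1* in Ins/Ins and 536 (3.79%) in Ins/Del. The antisense gene *Gm14820* covers 14.6% of the exonic bases of *Suv39h1* on the opposite strand and was not analysed here. Whether the counting used strand is not given in the sources used here, so reads of the pair cannot be told apart over that stretch.

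*Suv39h2* encodes the second SUV39H enzyme, with which SUV39H1 overlaps in function, and lies on the minus strand of chromosome 2 (3455815 to 3475031). Its level was 1156, 1051 and 1126 normalized counts in the control, 955, 1036 and 973 in Ins/Ins, and 951, 908 and 902 in Ins/Del. The mutant libraries lay below the control libraries, but by a narrow margin, since the highest Ins/Ins library was only just under the lowest control library. Its log2 fold change came to -0.17 in Ins/Ins (SE 0.049, adjusted p = 0.0020) and -0.27 in Ins/Del (SE 0.049, adjusted p = 6.6e-06), both by quasi-likelihood test in edgeR. The Ins/Ins value no longer passed the limit without control library 1 (adjusted p = 0.024), control library 3 (0.011), Ins/Ins library 1 (0.031) or Ins/Ins library 3 (0.011) in the same edgeR test, whereas the Ins/Del value passed without any single library. On the opposite strand, exons of *Dclre1c* cover 8.10% of the exonic bases of *Suv39h2*.

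The sequences upstream of the 2 SUV39H genes are shown because these paralogs changed by such different amounts. They are the 250 bases before the *Suv39h1* start (chrX:8074761-8075010, minus strand) and the 205 bases before the *Suv39h2* start (chr2:3475032-3475236, minus strand), from RefSeq on GRCm38.p6, cut where GENCODE M21 places the gene's first base. Capitals mark CCAAT and the GC box GGGCGG on either strand, and none of these matches overlap.

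Suv39h1: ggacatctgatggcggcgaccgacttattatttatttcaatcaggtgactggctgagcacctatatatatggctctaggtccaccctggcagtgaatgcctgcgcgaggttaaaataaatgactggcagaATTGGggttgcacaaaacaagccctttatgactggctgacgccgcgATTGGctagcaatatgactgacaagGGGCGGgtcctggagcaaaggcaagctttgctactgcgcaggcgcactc

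Suv39h2: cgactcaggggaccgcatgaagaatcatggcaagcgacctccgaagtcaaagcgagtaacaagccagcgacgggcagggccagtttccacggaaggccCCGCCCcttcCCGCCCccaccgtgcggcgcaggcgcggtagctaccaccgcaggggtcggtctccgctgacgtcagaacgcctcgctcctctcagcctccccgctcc

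The *Suv39h1* stretch held 2 CCAAT matches and 1 GC box, and the *Suv39h2* stretch 0 CCAAT matches and 2 GC boxes. In the 250 bases before the RefSeq start, all 10 genes held at least 1 GC box, which 32.7% of 32851 mouse promoters of the same length hold. CCAAT was present at *Suv39h1*, *Setdb1*, *Atf7ip* and *Cbx5*, against 33.8% of all promoters. An E2F motif (TTTCCCGC, TTTCGCGC or TTTGGCGC on either strand) was found at *Cbx3* among the 10 genes, against 1.53% of all promoters, and a CHR motif (TTTGAA or TTCGAA on either strand) at *Atf7ip*, against 17.1%. The *Suv39h1* window had the fewest CpG dinucleotides of the 10, 11 against up to 29 at *Cbx3*, where the median of all promoters was 6. These matches describe the letters of the windows and are not evidence of binding.

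Per-length levels are given as RPKM, counts per kilobase of GENCODE exon scaled by library size. Exons of all transcripts of a gene were joined, which gave 5270 bases for *Suv39h1* and 4410 for *Suv39h2*. Their longest coding transcripts have 3116 and 4327 bases. Levels, shares and ratios between genes depend on this choice, so which of the pair was higher in the control is not settled. The direction in which a ratio moved between groups does not depend on it. Summed as RPKM, the SUV39H pair went from 22.9 ± 0.942 (SD, n = 3) in the control to 15.2 ± 0.345 in Ins/Ins and 13.9 ± 0.304 in Ins/Del. *Suv39h1* made up 38.0%, 40.2% and 40.9% of this sum in the control libraries, 21.8%, 17.0% and 18.5% in the Ins/Ins libraries, and 16.8%, 17.9% and 17.7% in the Ins/Del libraries. The per-length ratio of *Suv39h2* to *Suv39h1* thereby moved from 1.52 ± 0.0993 in the control to 4.29 ± 0.652 in Ins/Ins and 4.74 ± 0.198 in Ins/Del. The groups of mutant libraries did not overlap the control in any of these quantities.

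**Figure D2:**
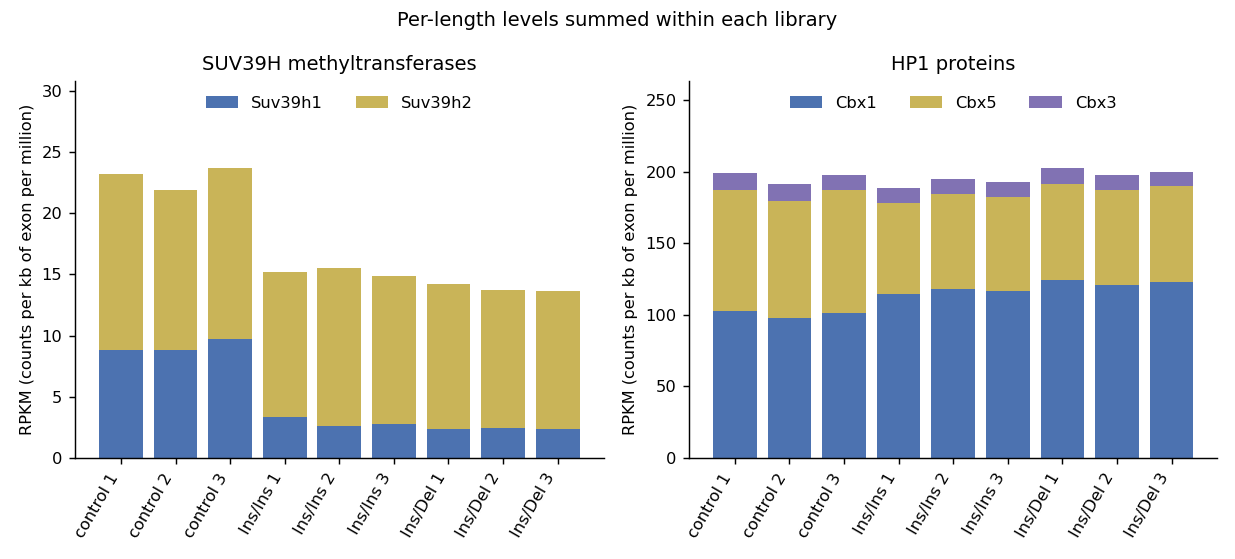
Per-length levels (RPKM, counts per kilobase of GENCODE exon scaled by library size, linear axis from 0) of the SUV39H methyltransferase genes (left) and the HP1 genes (right), stacked for each of the 9 libraries. The *Suv39h1* layer shrank from at least 8.80 in the control to at most 3.31 in the mutants. On these exon lengths, the summed height of the HP1 genes stayed between 189 and 203 and its *Cbx5* layer gave way to *Cbx1*. Heights of different genes depend on the length used.

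Neighbouring genes of *Suv39h1* were examined next. Of 20 other genes tested that lie within 250 kb of *Suv39h1*, 7 rose and 5 fell in Ins/Ins, and 7 rose and 6 fell in Ins/Del, by the edgeR test and the limit of 0.01. Of all genes tested, 29.0% rose and 29.4% fell in Ins/Ins, and 30.6% rose and 31.9% fell in Ins/Del. The calls thus did not set this window apart. The log2 fold changes of these neighbours ran from -2.46 to 1.85 in Ins/Ins and from -2.36 to 3.13 in Ins/Del. The gene to either side that was tested rose in both lines. *Was*, which encodes the Wiskott-Aldrich syndrome actin regulator, went from a mean of 23.7 normalized counts to 53.3 in Ins/Ins and 66.5 in Ins/Del, with log2 fold changes of 1.16 and 1.50. *Glod5* went from 52.7 to 91.2 and 77.2, with log2 fold changes of 0.78 and 0.54. The extremes of the window, *Pim2* and *Slc38a5*, are named because of their values. *Pim2*, a kinase gene, fell further than *Suv39h1*, from 2910 to 527 and 567 (log2 fold change -2.46 and -2.36), and *Slc38a5*, an amino acid transporter gene of low counts, rose from 4.89 to 18.1 and 43.9 (1.85 and 3.13).

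**Figure D3:**
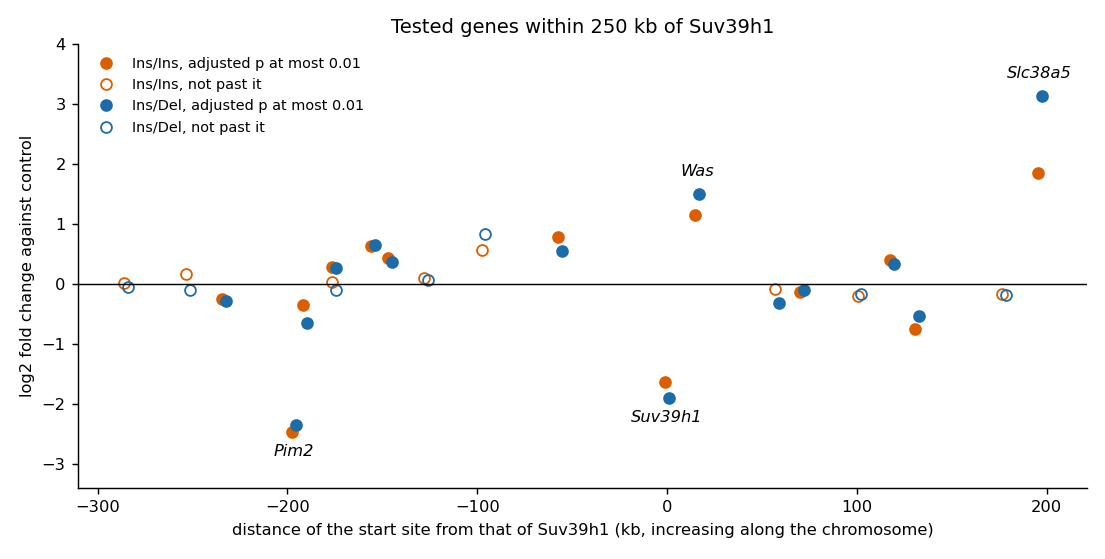
Log2 fold change against the control (edgeR) of *Suv39h1* and the 20 other tested genes lying within 250 kb of it, by the distance of their start sites from that of *Suv39h1* in kb, for Ins/Ins (orange) and Ins/Del (blue). Filled points passed an adjusted p-value of 0.01. *Suv39h1* and *Pim2* lie far below 0, and the adjacent *Was* lies above it.

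The EHMT pair fell by less. *Ehmt2* encodes G9a, the catalytic partner that EHMT1 stabilises. Its level was 2867, 2996 and 2831 normalized counts in the control, 2458, 2277 and 2330 in Ins/Ins, and 2307, 2237 and 2261 in Ins/Del. All 6 mutant libraries lay below the control, and the mean fell by 18.7% in Ins/Ins and fell by 21.7% in Ins/Del. The log2 fold changes were -0.30 (SE 0.036, adjusted p = 2.2e-09) and -0.35 (SE 0.036, adjusted p = 2.9e-11) by the edgeR test. *Ehmt1*, the GLP gene, had 2527, 2616 and 2649 in the control, 2357, 2275 and 2404 in Ins/Ins, and 2341, 2249 and 2124 in Ins/Del. Its groups did not overlap the control either, and its log2 fold changes were -0.15 (SE 0.037, adjusted p = 0.00071) and -0.21 (SE 0.037, adjusted p = 3.8e-06) in the same edgeR test. The per-length ratio of *Ehmt2* to *Ehmt1* was 1.65 ± 0.0614 in the control, 1.49 ± 0.0549 in Ins/Ins and 1.50 ± 0.0636 in Ins/Del. Its lowest control library, at 1.58, lay only just above the highest Ins/Del library, at 1.57.

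Within the SETDB1 axis, the enzyme and its recruiter rose and its cofactor fell. *Setdb1* was at 3204, 3287 and 3436 normalized counts in the control, 3863, 3920 and 4015 in Ins/Ins, and 3900, 4021 and 4131 in Ins/Del. Every mutant library was above every control library, a rise of 18.8% and 21.4%, with log2 fold changes of 0.25 (SE 0.033, adjusted p = 2.1e-08) and 0.28 (SE 0.033, adjusted p = 1.3e-09) in edgeR's test. *Trim28*, the corepressor, was the most abundant of the 10 genes per length, at 469.7 ± 14.5 RPKM in the control. It had 35332, 36834 and 34693 normalized counts in the control, 38005, 37787 and 38051 in Ins/Ins, and 38884, 38929 and 38759 in Ins/Del. The mutant libraries lay above the control libraries by a small margin, 6.54% and 9.09% on the means, with log2 fold changes of 0.09 (SE 0.025, adjusted p = 0.0017) and 0.13 (SE 0.025, adjusted p = 3.3e-05) in the edgeR test. *Atf7ip*, the cofactor, had 2671, 2661 and 2687 in the control, 2255, 2331 and 2352 in Ins/Ins, and 2247, 2280 and 2193 in Ins/Del. It fell in all 6 mutant libraries, with log2 fold changes of -0.21 (SE 0.034, adjusted p = 1.2e-06) and -0.25 (SE 0.034, adjusted p = 2.6e-08) in the same edgeR test. The per-length ratio of *Setdb1* to *Atf7ip* rose from 3.74 ± 0.120 in the control to 5.14 ± 0.0508 in Ins/Ins and 5.43 ± 0.238 in Ins/Del. Of the 50-base windows of the *Setdb1* transcript, 9.37% also occur in transcripts of other genes (*Cers2*, *Gm37500* and *Gm4349*).

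On the exon lengths used, the HP1 genes exchanged shares. *Cbx5*, the HP1α gene, was at 13842, 13428 and 14041 normalized counts in the control, 10417, 10894 and 10767 in Ins/Ins, and 11029, 10839 and 10997 in Ins/Del. It fell by 22.4% in Ins/Ins and fell by 20.4% in Ins/Del, with log2 fold changes of -0.37 (SE 0.027, adjusted p = 7.5e-15) and -0.33 (SE 0.027, adjusted p = 1.1e-13) with edgeR. *Cbx1*, the HP1β gene, had 8000, 7614 and 7903 in the control, 8944, 9210 and 9090 in Ins/Ins, and 9700, 9443 and 9565 in Ins/Del. It rose in all 6 mutant libraries, with log2 fold changes of 0.21 (SE 0.028, adjusted p = 2.0e-08) and 0.29 (SE 0.028, adjusted p = 1.0e-11) in the same edgeR test. Per length, the summed HP1 level was 196 ± 4.12 (SD, n = 3) in the control, 192 ± 3.13 in Ins/Ins and 200 ± 2.53 in Ins/Del, and the ranges of the control and of each mutant overlapped. Within this sum, *Cbx1* took 51.1% to 51.6% in the control, 60.6% to 60.8% in Ins/Ins and 61.4% to 61.5% in Ins/Del. *Cbx5* took 42.4% to 43.2%, 33.6% to 34.0% and 33.1% to 33.5%. The ratio of *Cbx5* to *Cbx1* thus went from 0.834 ± 0.0113 to 0.559 ± 0.00523 and 0.543 ± 0.00324. The sum and shares rest on 4273, 5992 and 9006 exonic bases for *Cbx1*, *Cbx3* and *Cbx5*. Their longest coding transcripts have 1824, 1889 and 8803 bases, which would weigh *Cbx1* and *Cbx3* far more. Whether the summed level stayed the same is therefore not settled. The *Cbx3* part also rests on counts that may miss or mix reads of pseudogene copies, as described below. The fall of *Cbx5* and the rise of *Cbx1* do not depend on length.

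*Cbx3*, the HP1γ gene, was the least certain of the 10. It was at 1310, 1289 and 1187 normalized counts in the control, 1149, 1135 and 1135 in Ins/Ins, and 1196, 1131 and 1098 in Ins/Del. The highest Ins/Del library lay above the lowest control library, so these groups overlapped, as they did for no other member against the control. The other 9 members did not overlap in Ins/Del (72.8% of all genes tested did not), and none of the 10 overlapped in Ins/Ins (69.1% of all genes tested did not). The log2 fold change of *Cbx3* was -0.15 in both lines (SE 0.046, adjusted p = 0.0049 in Ins/Ins and 0.0053 in Ins/Del by the edgeR test). It passed the limit in neither line in DESeq2 (adjusted p = 0.017 and 0.030), nor in Ins/Del when the edgeR fit held only the groups compared (adjusted p = 0.014). It also failed to pass in either line without control library 1 (0.044 and 0.046 in the edgeR test) or control library 2 (0.032 and 0.035). In Ins/Ins, it failed without Ins/Ins library 1 (adjusted p = 0.019 in the edgeR test), 2 (0.016) or 3 (0.017), and in Ins/Del, without Ins/Ins library 1 (0.011) or Ins/Del library 2 (0.026) or 3 (0.042). Of the 50-base windows of its transcript, 28.9% also occur in transcripts of 16 other genes, among them the pseudogenes *Cbx3-ps1* to *Cbx3-ps8*, so the counts may miss or mix reads of these copies.

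**Figure D4:**
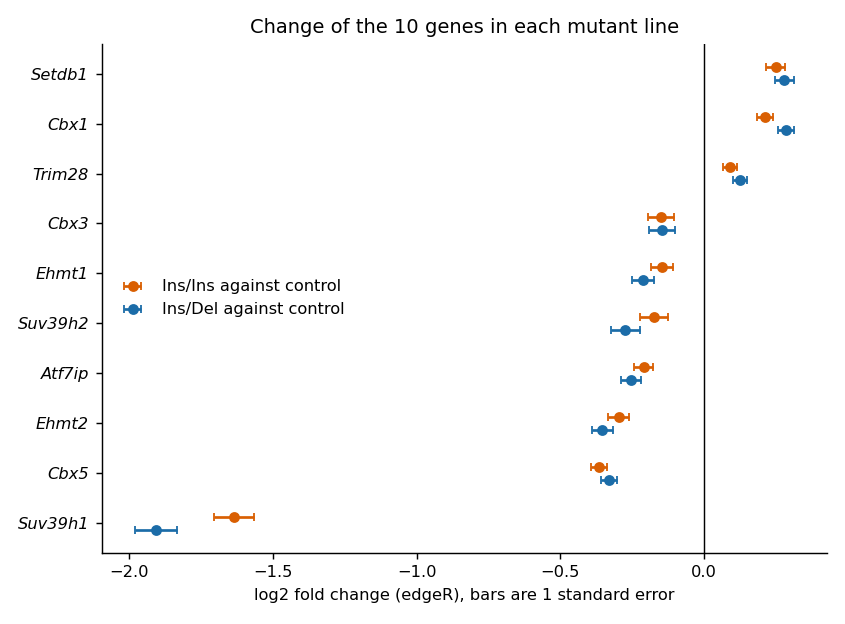
Log2 fold change against the control of the 10 genes in Ins/Ins (orange) and Ins/Del (blue), with bars of 1 standard error from edgeR. *Suv39h1* lies at -1.64 and -1.91, and the other genes lie between -0.37 and 0.29.

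The mutant lines were then compared with each other. None of the 10 genes passed the limit in edgeR's quasi-likelihood test, where 10.8% of all genes tested did, with 0 called by DESeq2 and 2 of the 10 (*Suv39h1* and *Cbx1*) at an unadjusted p under 0.05. *Suv39h1* had the largest difference, a log2 difference of -0.27 of Ins/Del from Ins/Ins (95% interval -0.45 to -0.10, adjusted p = 0.023 in the edgeR test). *Cbx1* differed by 0.08 (95% interval 0.02 to 0.13, adjusted p = 0.051 in the same edgeR test). *Suv39h1*, *Suv39h2*, *Trim28* and *Cbx1* had libraries that did not overlap between the lines, against 34.1% of all genes tested. *Cbx3* differed least, by 0.00 (95% interval -0.09 to 0.10). The other members lay between log2 differences of -0.10 and 0.04, and their intervals reached at most -0.20 and 0.10, so differences between the lines beyond these bounds lie outside the intervals.

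In the control, the 10 genes spanned a wide range of per-length levels. After *Trim28* came *Cbx1* at 101 ± 2.57 RPKM (SD, n = 3) and *Cbx5* at 83.8 ± 1.90, followed by *Ehmt2* at 29.0 ± 0.865, *Setdb1* at 26.5 ± 0.941, *Ehmt1* at 17.5 ± 0.426, *Suv39h2* at 13.8 ± 0.674, *Cbx3* at 11.5 ± 0.604, *Suv39h1* at 9.09 ± 0.515 and *Atf7ip* at 7.07 ± 0.0353. No neighbours in this order overlapped between their control libraries. The order rests on the joined exon lengths, which were 20726 bases for *Atf7ip*, whose longest coding transcript has 8059. With another length the order could differ. The place of *Cbx3* also rests on counts that may miss or mix reads of its pseudogene copies, as described above. On the exon lengths used, *Suv39h1* was the lowest in the mutants, at 2.90 ± 0.361 in Ins/Ins and 2.42 ± 0.0393 in Ins/Del. *Atf7ip* was at 6.12 ± 0.136 and 5.93 ± 0.117 there. *Setdb1* moved above *Ehmt2*, at 31.5 ± 0.615 against 23.5 ± 0.931 in Ins/Ins and 32.1 ± 0.923 against 22.7 ± 0.358 in Ins/Del.

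Other genes of the pathway, taken from lists of known factors, moved in both directions. The genes named with a fold change passed the limit in both lines in edgeR, in the same direction. Of all 14125 genes tested, 3618 were higher in both lines and 3769 were lower in both. For counts within a single line, the shares of all genes tested are those given above. Of 4 partners of the methyltransferases, 0 were higher and 2 lower in each line, with a median log2 fold change of -0.25 in Ins/Ins and -0.31 in Ins/Del. These were *Zfp644* and *Wiz*, zinc finger proteins that guide the G9a-GLP dimer to chromatin, with means of 2028, 1293 and 1302 normalized counts for *Zfp644* and 1607, 1176 and 1140 for *Wiz* in the control, Ins/Ins and Ins/Del. The log2 fold changes were -0.65 and -0.64 for *Zfp644* and -0.45 and -0.49 for *Wiz*. The antisense-strand gene *Gm26858* covers 22.1% of the exonic bases of *Wiz*.

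Of 4 genes of the HUSH complex, which recruits SETDB1 to newly integrated and repeated elements, 1 was higher and 3 lower in Ins/Ins (median log2 fold change -0.40), and 1 higher and 2 lower in Ins/Del (median -0.37). *Pphln1*, the periphilin subunit, fell from 1758 ± 65.3 to 957 ± 14.8 and 956 ± 33.9 (log2 fold change -0.88 in both lines). *Mphosph8*, the chromodomain subunit that reads methylated H3K9, fell from 2946 ± 37.1 to 1870 ± 22.3 and 1837 ± 85.2 (-0.65 and -0.68), and *Tasor*, the scaffold, rose from 5501 ± 298 to 6187 ± 300 and 6321 ± 238 (0.17 and 0.20). *Mphosph8* lies in a stretch of chromosome 14 between 45 and 87 Mb, where 84.4% of 262 genes tested were lower in Ins/Ins and 81.3% in Ins/Del, with median log2 fold changes of -0.90 and -0.93. The part of that regional shift in the *Mphosph8* value was not tested. On the opposite strand, exons of *Gm16973* cover 10.7% of the exonic bases of *Mphosph8*. *Gm16973* itself went from a mean of 125 normalized counts in the control to 54.3 in Ins/Ins and 48.4 in Ins/Del.

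Of 4 other genes of SET or PR-domain proteins credited with H3K9 methylation, 2 were higher and 1 lower in each line. *Mecom* had 53, 46 and 45 reads in the control libraries, 5, 9 and 9 in Ins/Ins and 2, 1 and 5 in Ins/Del. Its ratio to the control was 0.162 in Ins/Ins (95% counting interval 0.0996 to 0.253) and 0.0574 in Ins/Del (0.0243 to 0.116), intervals that cover counting error only. *Prdm16* rose from a mean of 53.2 normalized counts to 116 and 133 (log2 fold change 1.11 and 1.33), and *Prdm2* from 2256 to 3193 and 3392 (0.50 and 0.59). Per length, *Prdm2* stood at 16.7 ± 0.449 RPKM in the control, while *Mecom* and *Prdm16* stood at 0.209 ± 0.00809 and 0.313 ± 0.0315. The median log2 fold change of the 4 was 0.12 in Ins/Ins and -0.05 in Ins/Del.

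Of 4 KRAB zinc finger genes, whose proteins bring TRIM28 and SETDB1 to DNA, 2 were higher and 0 lower in Ins/Ins (median log2 fold change 0.13), and 2 higher and 1 lower in Ins/Del (median 0.22). *Zfp57*, which guards imprints, rose from 4354 ± 238 normalized counts to 6910 ± 144 and 8018 ± 188 (log2 fold change 0.67 and 0.88), and *Zfp809*, which silences murine leukemia virus sequences, from 888 ± 33.5 to 1078 ± 69.4 and 1158 ± 22.1 (0.28 and 0.39). Of 10 HP1 partners and heterochromatin factors, 3 were higher and 5 lower in Ins/Ins (median log2 fold change -0.24), and 3 higher and 3 lower in Ins/Del (median -0.06). The remodeller genes *Chd4* (log2 fold change -0.39 and -0.40) and *Atrx* (-0.28 and -0.42) and the lamin B receptor gene *Lbr* (-0.23 and -0.11) fell. *Daxx*, a histone H3.3 chaperone (0.19 and 0.23), *Pogz*, an HP1-binding protein (0.16 and 0.18), and *Chaf1a*, the large subunit of the CAF-1 chaperone (0.16 and 0.12), rose. Exons of *Ubxn6* cover 52.5% of those of *Chaf1a* on the opposite strand, and *Ubxn6* itself went from a mean of 737 normalized counts to 567 and 510, so the *Chaf1a* value is uncertain. *Adnp*, which links HP1γ to CHD4, could not be read well, since the gene model *Gm20716* covers 82.1% of its exonic bases on the same strand, and it had means of 140, 107 and 109 normalized counts.

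Of 10 H3K9 demethylase genes tested, 2 were higher and 3 lower in Ins/Ins (median log2 fold change -0.06), and 4 higher and 4 lower in Ins/Del (median 0.05). *Phf2*, which demethylates dimethylated H3K9, fell from 360 ± 28.6 normalized counts to 182 ± 8.67 and 168 ± 15.8 (log2 fold change -0.98 and -1.11). *Jmjd1c*, a relative of *Kdm3a* (-0.55 and -0.39) and *Kdm4b*, a demethylase of trimethylated H3K9 (-0.32 and -0.60) also fell, and *Kdm3a*, a demethylase of mono- and dimethylated H3K9 (0.29 in both lines), and its relative *Kdm3b* (0.11 in both lines) rose. The antisense-strand gene *Gm26538* covers 24.6% of the exonic bases of *Kdm3b*. Of 8 *Mage-a* genes, a testis-expressed family on chromosome X that is silent in most tissues, 1 had enough reads for a test. *Magea4* had 3, 1 and 2 reads in the control libraries, 13, 18 and 13 in Ins/Ins and 21, 19 and 15 in Ins/Del, a ratio of 7.45 (95% counting interval 3.16 to 21.4) and 9.47 (4.08 to 26.9).

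**Figure D5:**
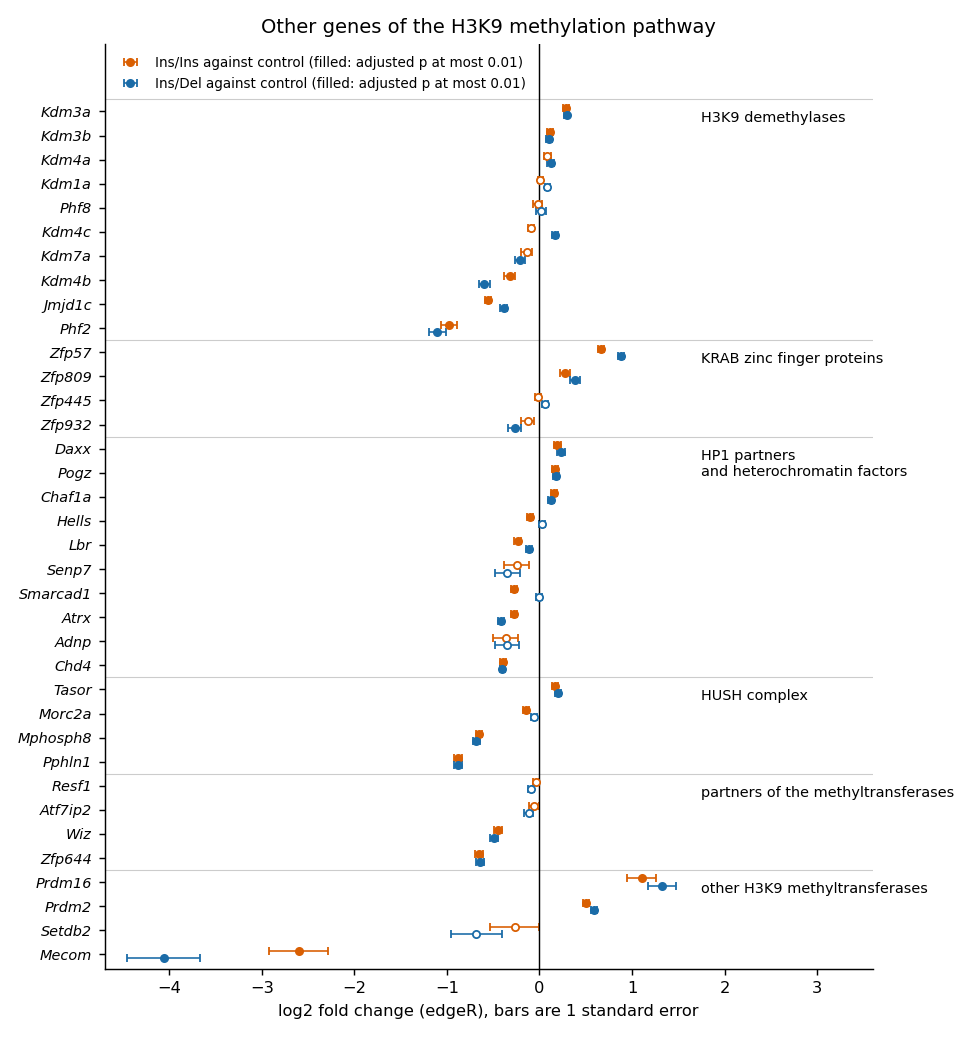
Log2 fold change against the control (edgeR) of the tested genes of 6 further lists of the H3K9 methylation pathway in Ins/Ins (orange) and Ins/Del (blue), with bars of 1 standard error. Filled points passed an adjusted p-value of 0.01. *Mecom* lies furthest to the left and *Prdm16* furthest to the right, and the HUSH genes *Pphln1* and *Mphosph8* lie left of 0 by more than any of the HP1 partners.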

How the data were processed

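RNA-seq was analysed for 3 libraries each of control E14 and of the Ins/Ins and Ins/Del *Rbbp4* lines, grouped by the genotype label. The authors prepared messenger RNA libraries, aligned the paired reads to mm10 with STAR 2.7.3 and counted them per gene symbol with HTSeq, and the deposited values are whole-number counts without normalization. The annotation and strand setting are not given in the sources used here. The labels do not say that replicates were separate cultures, so p-values measure only the spread between these libraries.

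Counts were scaled by TMM, filtered with filterByExpr and fitted with edgeR 4.0.16 (R 4.3.3) as a quasi-likelihood model over all 9 libraries with 3 groups. P-values were adjusted by the Benjamini-Hochberg method over 14125 genes, with a limit of 0.01, so that every adjusted p given is from edgeR unless DESeq2 is named. The common biological coefficient of variation was 0.0286, and replicates differed by more than counting noise. Per-length levels used GENCODE M21 exons on GRCm38, in which 24321 of 25239 symbols matched 1 gene. Promoters came from RefSeq.

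The 10 members and the gene lists were chosen with earlier results of these data known. All members, *Rbbp4* and up to 3 genes in each direction per list, those with the largest mean change among genes past the limit in both lines, are named, and neighbours of *Suv39h1*, marker genes and listed genes that differed between the lines were added after their values were seen. The edgeR fit, tested on simulated data, recovered 193 (Ins/Ins) and 194 (Ins/Del) of 200 changed genes among 13912, with 4 false calls in each. Only 200 genes changed there, against 8252 and 8829 called in these data. It thus does not show how the fit behaves when most genes differ. Alternatives were DESeq2 1.42.0, its size factors, total counts, genes with at least 1 read, only the groups compared, the replicate block, each library left out and a limit of 0.05. Python 3.11.15 with pandas 2.3.3, numpy 2.4.6 and scipy 1.17.1 made the annotation and per-length tables.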

Additional observations from a re-analysis of the deposited data

Results flagged for a closer look

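None of the 10 H3K9 methylation and HP1 genes differed between the mutant lines at the limit used, but 7 further genes of the pathway lists did, by the test of the difference itself in edgeR's quasi-likelihood model with Benjamini-Hochberg adjustment. Of all genes tested, 10.8% did so. The 7 came from 10 HP1 partners and heterochromatin factors, 4 KRAB zinc finger genes and 10 demethylase genes tested. The remaining lists held 0 such genes. These were 4 other H3K9 methyltransferase genes, 4 partners of the methyltransferases, 4 HUSH genes and 1 tested *Mage-a* gene. *Zfp57* was higher in Ins/Del than in Ins/Ins by 0.21 on the log2 scale (adjusted p = 3.5e-06), and *Jmjd1c* by 0.17 (adjusted p = 0.00054). *Kdm4c* (0.27, adjusted p = 1.8e-07), *Smarcad1* (0.26, adjusted p = 8.2e-08) and *Hells* (0.13, adjusted p = 0.0012) were also higher in Ins/Del on the log2 scale. Of these, *Smarcad1* and *Hells* had passed the limit against the control in Ins/Ins, where they were lower, and *Kdm4c* in Ins/Del, where it was higher. *Atrx* had a log2 difference of -0.14 (adjusted p = 0.0025), and *Kdm4b* of -0.27 (adjusted p = 0.00098). *Slc38a5*, near *Suv39h1*, was higher in Ins/Del by 1.28 on the log2 scale (adjusted p = 0.00034), and *Rbbp4* itself by 0.89 (adjusted p = 4.1e-24). Among the cell type markers, the log2 differences were 0.15 for *Zfp42* (adjusted p = 9.9e-05), -0.10 for *Sox2* (adjusted p = 0.0057), 0.34 for *Thy1* (adjusted p = 0.0035) and -1.31 for *Pax6* (adjusted p = 1.9e-07). The causes of these differences were not tested.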

How the results depend on the processing

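Over 15 alternatives, 30 fold changes of the 10 genes gave 450 values, of which 429 kept their direction and their side of the limit, 17 no longer passed it and 4 turned direction. The 17 were those of *Suv39h2* and *Cbx3* given above. The 4 were the difference of *Cbx3* between the lines, near 0 throughout, at -0.00018 with all genes of at least 1 read, and between -0.032 and 0.028 over all alternatives, with -0.00055 without Ins/Ins library 2, -0.00037 without Ins/Ins library 3 and -0.032 without Ins/Del library 1. *Suv39h1* stayed between -1.74 and -1.57 in Ins/Ins and between -1.93 and -1.85 in Ins/Del. With single libraries left out, between 8 and 10 of the 10 genes passed in Ins/Ins, between 9 and 10 in Ins/Del and 0 between the lines, and DESeq2 called 9, 9 and 0. At a limit of 0.05, 1 of the 10, *Suv39h1*, differed between the lines. Over all genes, 1527 differed between the lines, 2682 at a limit of 0.05 and between 988 (without Ins/Del library 2) and 1646 with single libraries left out, with 1014 without Ins/Ins library 1. Same-numbered libraries did not visibly deviate together, with correlations between -0.096 and 0.069. Differently numbered libraries had correlations between -0.10 and 0.16. Whether same-numbered libraries were prepared together cannot be told from these values. With the replicate block, 8225, 8795 and 1499 genes passed in place of 8252, 8829 and 1527, and no call on the 10 genes changed. Other scalings moved the median of all genes by at most 0.016 (log2) in size. Genes with few reads, such as *Mecom* and *Magea4*, are limited by depth.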
